A study of Mus musculus with 4 samples.

Results

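A set of 9 genes of endothelial activation and of venular endothelium was followed in heart cells: Plvap, Lrg1, Vwf, Selp, Vcam1, Icam1, Esm1, Apln and Sox17, out of the 32285 genes counted. They were read in cells in which at least 4 of 6 endothelial genes (Cdh5, Flt1, Kdr, Egfl7, Emcn and Ptprb) had a UMI, a unique molecular identifier that marks 1 captured RNA molecule. This gate held 1663 of the 17312 cells that passed the submitters' filter. The 9 genes were chosen with their values in these cells known, so their levels and differences are descriptions and carry no test.

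The study concerned heart phagocytes after chemotherapy. Adult mice received carboplatin, a platinum drug that crosslinks DNA, at 45 mg/kg into the peritoneum, or the same volume of PBS, on a schedule of 2 injections per week over 2 weeks, and all then recovered for 4 weeks. A minipump under the skin next delivered either angiotensin II at 1.5 mg/kg/d with PE at 50 mg/kg/d (AngII/PE below) or saline, and hearts were taken on day 7. The 4 groups, in the order used throughout, were PBS then saline (PBS-saline), carboplatin then saline (carboplatin-saline), PBS then AngII/PE (PBS-AngII/PE) and carboplatin then AngII/PE (carboplatin-AngII/PE). Each was 1 library from 5 mice of both sexes pooled, with no strain or genotype named in the labels. Cells were sorted as CD64+ phagocytes (CD45+, CD11b+, Ly6G-, Ly6C low), so endothelial cells here are ones that came through a sort not meant for them. The submitters describe removing endothelial cells as contamination, and how such cells passed the sort in each group was not tested.

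Endothelial cells line vessels and differ along the vascular tree. Small veins (venules) are where leukocytes leave the blood: P-selectin (Selp) catches them, and VCAM-1 (Vcam1) and ICAM-1 (Icam1) hold them through integrins. Von Willebrand factor (Vwf) is stored with P-selectin in Weibel-Palade bodies and tethers platelets, PLVAP forms the diaphragms of fenestrae and caveolae, and LRG1 is a secreted glycoprotein that acts on TGF-beta signalling in vessels. Esm1 and Apln mark sprouting (tip) cells, Apln encoding the ligand of the apelin receptor, and Sox17 is a transcription factor of arterial identity.

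The genes lie on 8 chromosomes of mm10. Plvap is at chr8:71497765-71511752 (minus strand), Lrg1 at chr17:56119678-56122001 (minus), Vwf at chr6:125546774-125686679 (plus), Selp at chr1:164115264-164150026 (plus) and Vcam1 at chr3:116109949-116129688 (minus). Icam1 is at chr9:21015985-21028817 (plus), Esm1 at chr13:113209659-113218098 (plus), Apln at chrX:48025146-48034853 (minus) and Sox17 at chr1:4490931-4497354 (minus). All are protein-coding. The sources used here do not state strand-specific counting, and 6 of the genes are overlapped on the other strand. Gtpbp3, which overlaps Plvap, held 61, 67, 51 and 71 UMIs in the endothelial cells of the 4 libraries. Gzmk overlaps Esm1, and noncoding genes overlap Selp, Vcam1, Icam1 and Sox17; none of these was among the genes that averaged at least 10 CPM (UMIs scaled to the same total in every library) in the gated cells, and reads of such a pair cannot be told apart.

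Promoters of 5 of the 9 genes were in the RefSeq table (GRCm38.p6). The 250 bases before the RefSeq start are shown for Lrg1 and Selp, which were higher under AngII/PE in both comparisons, and for Icam1, which was not. For Lrg1 this start lies inside the gene as placed above, so the last bases shown, with the CTTCCT match, are within it. For Icam1 it lies upstream of the gene as placed above. Capitals mark AGGAAG, the core of ETS factor sites, on either strand in Lrg1 and Selp, and GGNNNTTCC, an NF-kB-like core, on either strand in Icam1.
Lrg1, chr17:56121947-56122196, minus strand: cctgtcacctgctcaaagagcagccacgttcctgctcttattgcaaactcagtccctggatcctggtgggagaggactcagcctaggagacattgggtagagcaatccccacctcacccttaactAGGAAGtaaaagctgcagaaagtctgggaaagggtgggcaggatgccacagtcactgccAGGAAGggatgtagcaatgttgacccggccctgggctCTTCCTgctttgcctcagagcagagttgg
Selp, chr1:164115014-164115263, plus strand: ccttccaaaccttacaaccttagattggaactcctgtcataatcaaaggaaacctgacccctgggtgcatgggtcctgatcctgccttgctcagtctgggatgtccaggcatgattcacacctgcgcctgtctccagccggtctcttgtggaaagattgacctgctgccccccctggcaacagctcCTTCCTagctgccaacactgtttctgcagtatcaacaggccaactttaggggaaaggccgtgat
Icam1, chr9:21015690-21015939, plus strand: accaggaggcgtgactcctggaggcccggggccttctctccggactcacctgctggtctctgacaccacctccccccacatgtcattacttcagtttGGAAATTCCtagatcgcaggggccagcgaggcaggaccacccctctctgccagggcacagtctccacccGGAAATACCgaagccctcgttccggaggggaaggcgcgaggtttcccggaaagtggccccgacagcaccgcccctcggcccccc
AGGAAG was found 3 times for Lrg1, 1 time each for Selp and Apln, and in 29.5% of all 32851 promoters of that length. GGNNNTTCC was found 2 times for Icam1 and in 15.7% of promoters; it also matched 1 time in each of Lrg1 and Selp, in Lrg1 overlapping an AGGAAG match. The STAT motif TTCNNNGAA matched 1 time, for Icam1, and is in 7.02% of promoters. The AP-1 motif TGANTCA matched 1 time, for Selp (6.75% of promoters), the HIF core ACGTG 1 time, for Lrg1 (16.6%), and TATAAA in none of the 5 (12.4%). All were searched on both strands. These are letter matches, not sites shown to be bound. Apln and Esm1 were also in the table and Plvap, Vwf, Vcam1 and Sox17 were not matched in it.

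The gate selected 543 cells (12.6% of kept cells) in PBS-saline, 498 (14.3%) in carboplatin-saline, 294 (7.64%) in PBS-AngII/PE and 328 (5.79%) in carboplatin-AngII/PE. All 10 endothelial markers outside the gate, Pecam1 and Cldn5 among them, were detected in the gated cells of every library, the least frequent (Cldn5) in 45.5% to 53.4% of cells. The gated cells held 3471658 to 4203798 UMIs per library, and their median depth was 6479, 7465, 10383.5 and 11036 UMIs in the same order, so shares of cells with a UMI are also given after thinning every cell to 2000 UMIs. Markers of other cells moved with the groups too. Of gated cells, 38, 17, 22 and 40 also held at least 4 of 6 macrophage markers, and the summed level of 6 fibroblast markers in them was 22.5, 79.0, 137 and 194 CPM. The summed level of 6 mural cell markers (such as Rgs5 and Pdgfrb) in gated cells was 102, 429, 134 and 31.8 CPM, highest in carboplatin-saline and lowest in carboplatin-AngII/PE. Without cells that reached any other class's gate, the AngII/PE to saline ratios were 15.6 and 35.6 for Plvap, 43.3 and 107 for Lrg1, 2.54 and 2.35 for Vwf and 1.48 and 1.50 for Sox17, after PBS and after carboplatin. Barcode sequences found in more than 1 library numbered 79 of 27968 barcodes, 1 to 6 of them in the gated cells of a library.

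Plvap was nearly absent from saline endothelial cells and abundant under AngII/PE. Its level was 7.92 CPM (33 UMIs in 7 of 543 cells) in PBS-saline, 2.85 CPM (12 UMIs in 4 cells) in carboplatin-saline, 139 CPM (483 UMIs in 52 cells) in PBS-AngII/PE and 77.6 CPM (315 UMIs in 47 cells) in carboplatin-AngII/PE. Both AngII/PE libraries were high and both saline libraries low, and the counting intervals of the pairs did not overlap. The ratio of AngII/PE to saline was 17.6 after PBS (95% exact binomial interval 12.3 to 25.8) and 27.2 after carboplatin (15.3 to 53.2). These and all other intervals cover counting error only: with 1 library per group the spread between mice is unknown, and UMIs of 1 cell are not independent. After thinning, Plvap was seen in 0.408%, 0.685%, 10.2% and 7.23% of cells. The size of the ratio depended on which cells were read: after PBS it was 3.33 in cells called female by their sex-linked transcripts (52 against 27 UMIs) and 51.9 in cells called male (390 against 6 UMIs), and after carboplatin it was 7.28 with no filter on barcodes.

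The few Plvap molecules in saline libraries lay mostly in cells with markers of endocardium, the lining of the heart chambers. Of the 33 UMIs in PBS-saline, 28 were in the 3 cells with at least 3 of 6 endocardial markers (such as Npr3), as were 11 of the 12 in carboplatin-saline, again in 3 cells. Under AngII/PE, such cells held 140 of 483 UMIs (7 cells) after PBS and 79 of 315 (5 cells) after carboplatin. Outside them Plvap had 5 UMIs in 540 cells and 343 in 287 cells in the PBS pair, and 1 UMI in 495 cells against 236 in 323 cells in the carboplatin pair. Plvap outside the endocardial-marker cells was therefore found almost wholly in the AngII/PE libraries, in 46 of 287 cells after PBS and 42 of 323 cells after carboplatin.

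Lrg1 followed the same pattern of libraries. It measured 2.40 CPM (10 UMIs in 7 cells) in PBS-saline, 1.43 CPM (6 UMIs in 3 cells) in carboplatin-saline, 103 CPM (356 UMIs in 65 cells) in PBS-AngII/PE and 59.6 CPM (242 UMIs in 56 cells) in carboplatin-AngII/PE. The AngII/PE libraries were again both high and the saline libraries both low. The AngII/PE to saline ratio was 42.7 after PBS (23.0 to 89.9) and 41.8 after carboplatin (18.9 to 115). After thinning, Lrg1 was seen in 0.408%, 0% (0 of 438 cells, which allows up to 0.685%), 10.6% and 8.49% of cells. In female-called cells it held 3 UMIs in PBS-saline and 18 in PBS-AngII/PE, and 0 and 21 in the carboplatin pair, at least 3.71-fold higher against a floor of 3 UMIs in the library. In male-called cells it held 6 against 307 UMIs after PBS (40.9-fold) and 2 against 187 after carboplatin. The direction was the same in cells of both called sexes, and the difference in size between them was not tested. Lrg1 is also a neutrophil gene: cells with at least 4 of 6 neutrophil markers held it at 272 to 1000.4 CPM, in 8 to 14 cells per library. Of the 65 and 56 Lrg1-positive endothelial cells under AngII/PE, 57 and 48 held none of the 6 neutrophil markers, and these held 314 of the 356 and 216 of the 242 UMIs.

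**Figure D1:**
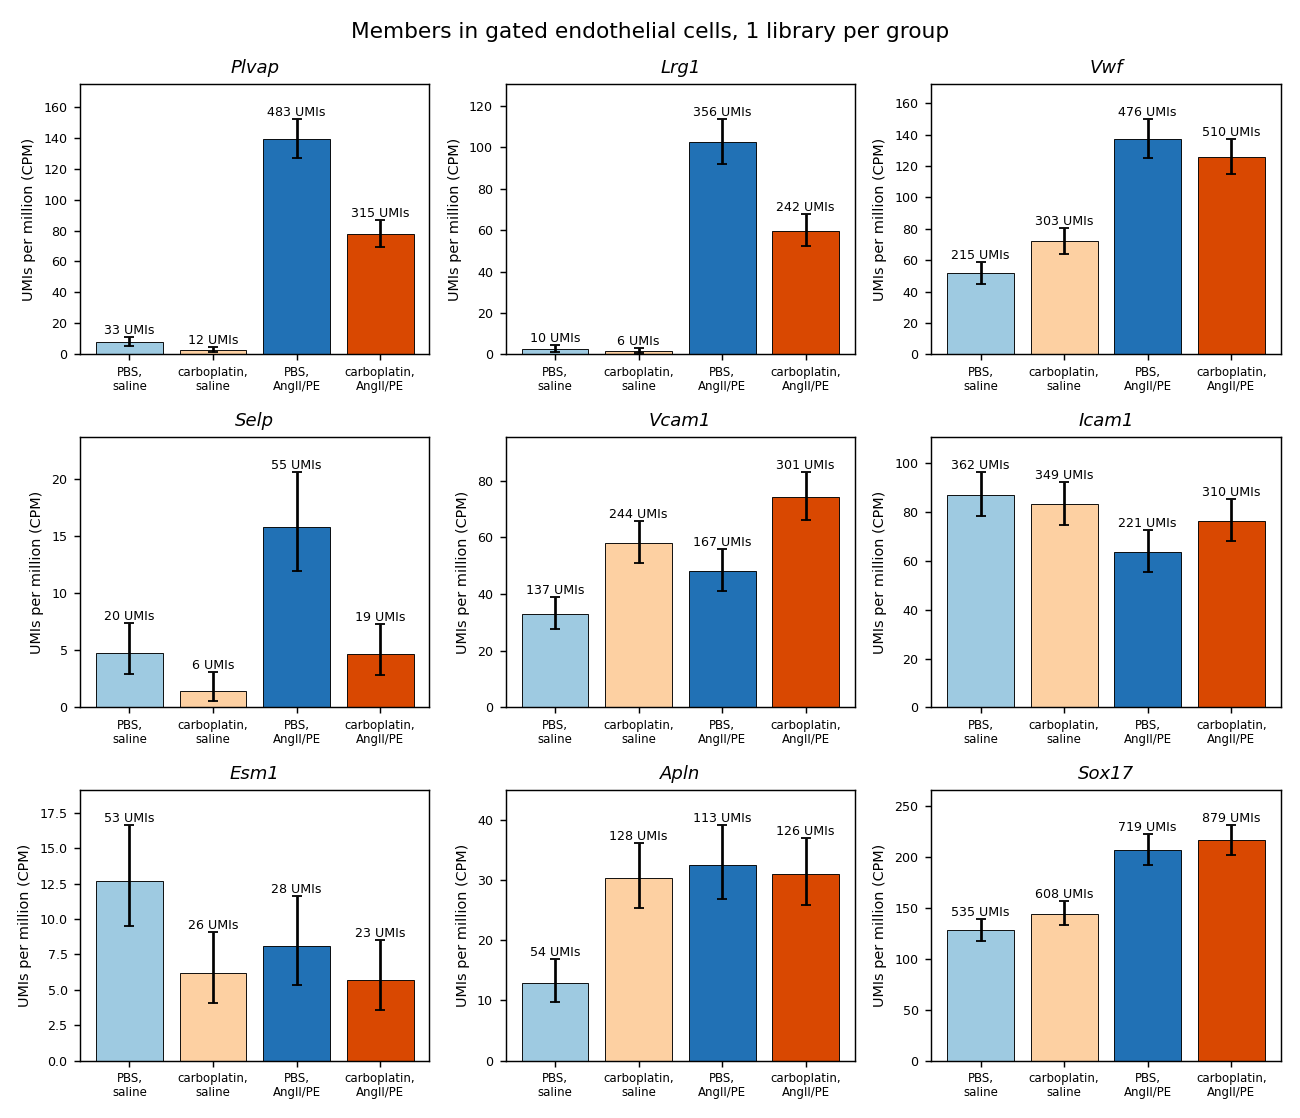
Level of each gene in gated endothelial cells (CPM, vertical axes starting at 0 and scaled per gene), 1 bar per library with its exact Poisson 95% interval and its UMI count. Plvap and Lrg1 are near 0 in both saline libraries, Apln is low only in PBS-saline, and Icam1 lies between 63.7 and 86.8 CPM throughout.

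The Weibel-Palade genes were higher under AngII/PE by smaller factors, resting on few cells. Vwf measured 51.6 CPM (215 UMIs in 59 cells) in PBS-saline, 72.1 CPM (303 in 58) in carboplatin-saline, 137 CPM (476 in 59) in PBS-AngII/PE and 126 CPM (510 in 49) in carboplatin-AngII/PE. The ratio was 2.66 after PBS (2.26 to 3.14) and 1.74 after carboplatin (1.51 to 2.02). The 5 cells richest in Vwf held 45.1% to 67.3% of its UMIs per library. Under carboplatin-AngII/PE, 343 of its 510 UMIs lay in the 5 endocardial-marker cells, and without cells of that kind and of lymphatic kind the ratio after carboplatin was 0.981. Counting at most 5 UMIs per cell gave 1.47 after PBS and 0.993 after carboplatin. After thinning, Vwf was seen in 6.12%, 5.71%, 8.48% and 5.97% of cells.

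Selp was sparse. It held 20 UMIs (4.80 CPM, 4 cells) in PBS-saline, 6 (1.43 CPM, 4 cells) in carboplatin-saline, 55 (15.8 CPM, 9 cells) in PBS-AngII/PE and 19 (4.68 CPM, 5 cells) in carboplatin-AngII/PE. The ratio was 3.30 after PBS (1.95 to 5.82) and 3.28 after carboplatin (1.26 to 10.0), but a single cell held 29 of the 55 UMIs, and after thinning Selp was seen in only 1 to 3 cells per library. Its direction turned under several alternatives given in the closing section. Of the cells with Selp, 4 of 4, 3 of 4, 8 of 9 and 4 of 5 also held Vwf.

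The adhesion molecules for integrins showed no common course. Vcam1 measured 32.9 CPM (137 UMIs in 51 cells) in PBS-saline, 58.0 CPM (244 in 76) in carboplatin-saline, 48.1 CPM (167 in 44) in PBS-AngII/PE and 74.2 CPM (301 in 71) in carboplatin-AngII/PE. Both carboplatin libraries exceeded their PBS partner: the carboplatin to PBS ratio was 1.77 under saline (1.43 to 2.19) and 1.54 under AngII/PE (1.27 to 1.87), while AngII/PE to saline gave 1.46 and 1.28. In female-called cells the carboplatin ratio under saline was 0.892 and the AngII/PE ratio after PBS 0.828. The AngII/PE ratio after carboplatin was 0.825 with no filter on barcodes, so neither AngII/PE ratio of Vcam1 kept its direction under all alternatives. After thinning, Vcam1 was seen in 4.08%, 7.99%, 6.36% and 7.55% of cells. Icam1 measured 86.8 CPM (362 UMIs in 122 cells), 83.0 CPM (349 in 130), 63.7 CPM (221 in 97) and 76.4 CPM (310 in 119) in the same order of libraries. Its AngII/PE to saline ratio was below 1 after PBS (0.733, 0.617 to 0.869) and its interval included 1 after carboplatin (0.920, 0.787 to 1.08). After thinning, Icam1 was seen in 9.18%, 9.36%, 8.13% and 13.5% of cells, so after carboplatin the share was higher under AngII/PE where the level was not, and no order is read from it.

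Of the sprouting genes, Apln was low in 1 library and Esm1 was sparse in all. Apln measured 12.95 CPM (54 UMIs in 20 cells) in PBS-saline, 30.4 CPM (128 in 39) in carboplatin-saline, 32.5 CPM (113 in 30) in PBS-AngII/PE and 31.0 CPM (126 in 51) in carboplatin-AngII/PE. The last 3 libraries could not be told apart within their counting intervals. The AngII/PE to saline ratio was 2.51 after PBS (1.80 to 3.54) and 1.02 after carboplatin (0.791 to 1.31), and carboplatin to PBS under saline was 2.35 (1.70 to 3.29). Esm1 held 53, 26, 28 and 23 UMIs (12.7, 6.18, 8.07 and 5.67 CPM) in 19, 12, 11 and 15 cells. Its AngII/PE to saline ratios, 0.634 (0.386 to 1.02) and 0.916 (0.499 to 1.67), both had intervals that included 1. After thinning, Apln was seen in 1.22%, 3.20%, 3.53% and 4.72% of cells and Esm1 in 1.43%, 0.685%, 1.41% and 1.57%.

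Sox17 was the gene most widely detected. It measured 128 CPM (535 UMIs in 217 cells) in PBS-saline, 145 CPM (608 in 215) in carboplatin-saline, 207 CPM (719 in 192) in PBS-AngII/PE and 217 CPM (879 in 215) in carboplatin-AngII/PE. Both AngII/PE libraries were higher, by 1.61-fold after PBS (1.44 to 1.81) and 1.50-fold after carboplatin (1.35 to 1.66, just under the 1.5-fold line). The share of cells with a UMI was 40.0%, 43.2%, 65.3% and 65.5%, and after thinning 17.8%, 18.9%, 30.7% and 28.9%, so the share was higher under AngII/PE at equal depth too.

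**Figure D2:**
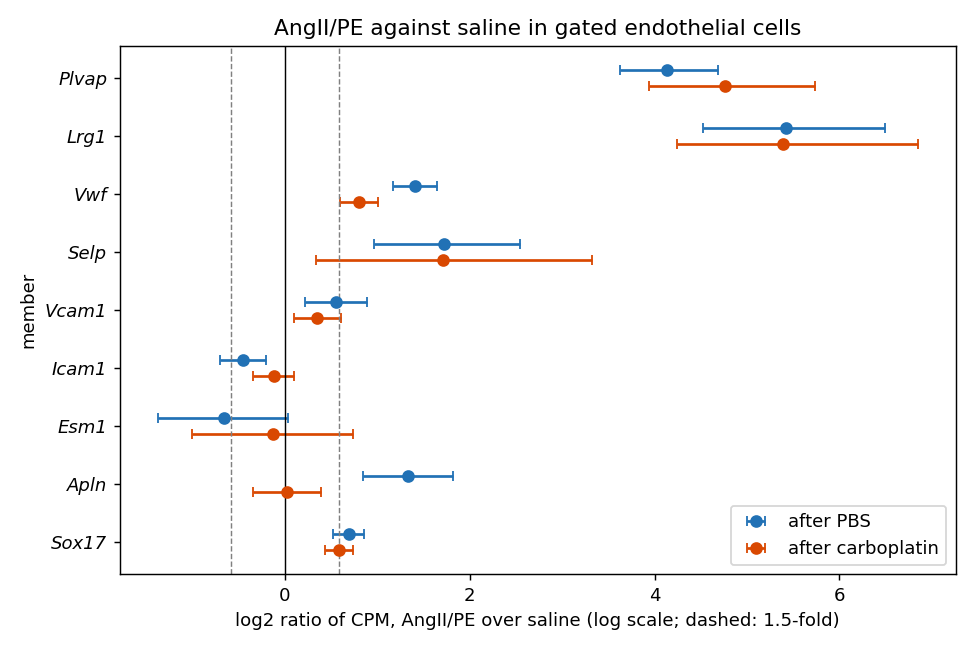
The log2 ratio of CPM between AngII/PE and saline (horizontal axis, log scale) for each gene, after PBS (blue) and after carboplatin (orange), with exact 95% counting intervals and dashed lines at 1.5-fold. Plvap and Lrg1 lie at 4.14 to 5.42, the other 7 genes between -0.66 and 1.72.

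A threshold of 1.5-fold was used to set the genes against all others; the level filter was a mean of 10 CPM, which 7 of the 9 passed. Selp and Esm1 did not, and Plvap and Lrg1 passed only through the AngII/PE libraries. After PBS, 6 of the 9 were at least 1.5-fold higher under AngII/PE (Plvap, Lrg1, Vwf, Selp, Apln and Sox17) and Esm1 was lower; of all genes tested, 10.6% were higher, 10.7% lower and 21.3% either. After carboplatin 4 were higher (Plvap, Lrg1, Vwf and Selp) and none lower, against 12.5% higher and 10.6% lower of all genes (23.1% either). The median log2 ratio of the 9 was 1.33 after PBS and 0.58 after carboplatin, beside -0.03 and -0.01 for all genes. Past 2-fold, 5 were higher and none lower after PBS (3.58%, 2.93% and 6.51% of all genes higher, lower and either), and 3 were higher and none lower after carboplatin (3.56%, 2.6% and 6.16%). As the 9 genes were picked from these contrasts, nothing is read from the difference.

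Between carboplatin and PBS the genes differed in both directions. Under saline Vcam1 and Apln were at least 1.5-fold higher and Plvap, Lrg1, Selp and Esm1 lower, while 3.58% of all genes were higher and 4.34% lower (7.93% either). The 4 lower genes had 6 to 26 UMIs in the carboplatin library, and the interval of Lrg1 included 1 (0.595, 0.178 to 1.81). Under AngII/PE Vcam1 was higher, and Plvap (0.558, 0.482 to 0.644), Lrg1 (0.581, 0.492 to 0.686) and Selp (0.295, 0.166 to 0.506) lower, while 3.43% of all genes were higher and 2.45% lower (5.88% either). The sex make-up of the gated cells differed too. Of those with a called sex, 25.9% were female in PBS-AngII/PE and 49.6% in carboplatin-AngII/PE. In PBS-saline and carboplatin-saline the shares were 38.2% and 27.4%. Split by called sex, the Lrg1 ratio under AngII/PE was 0.852 for males and 0.445 for females. How far sex accounts for these differences was not tested. Past 2-fold, Apln was higher and Plvap, Selp and Esm1 lower under saline (1.09%, 1.24% and 2.33% of all genes higher, lower and either), and under AngII/PE Selp alone was lower (0.567%, 0.471% and 1.04%). With no filter on barcodes Plvap under saline was 1.65-fold higher, not lower, after carboplatin, and only Selp was past 1.5-fold under AngII/PE. The 114 gated barcodes that failed the filter in the carboplatin-AngII/PE library held a further 253 Plvap and 251 Lrg1 UMIs, with up to 111 and 99 in a single barcode.

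Under AngII/PE, cells with Plvap more often also held Lrg1, Vwf, Vcam1 and Selp. In the PBS-AngII/PE library, Lrg1 was detected in 37 of 52 cells with Plvap (71.2%) and in 11.6% of the 242 cells without it. Vwf was in 55.8% against 12.4%, Vcam1 in 44.2% against 8.68%, and Selp in 11.5% against 1.24%. Apln (3.85% against 11.6%) and Esm1 (1.92% against 4.13%) were less frequent in cells with Plvap in that library. In the carboplatin-AngII/PE library Lrg1 was in 53.2% of 47 cells with Plvap against 11.03% of 281 without, Vwf in 44.7% against 9.96% and Apln in 19.1% against 14.9%. Cells with Plvap were deeper (median 16085 against 9767 UMIs after PBS, 15200 against 10368 after carboplatin), and the part of depth in these shares was not tested. Across cells, the Pearson correlation of log-scaled Plvap and Lrg1 was 0.56 in both AngII/PE libraries (294 and 328 cells) and 0.06 and -0.01 in the saline libraries (543 and 498 cells), where few cells held either gene.

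**Figure D3:**
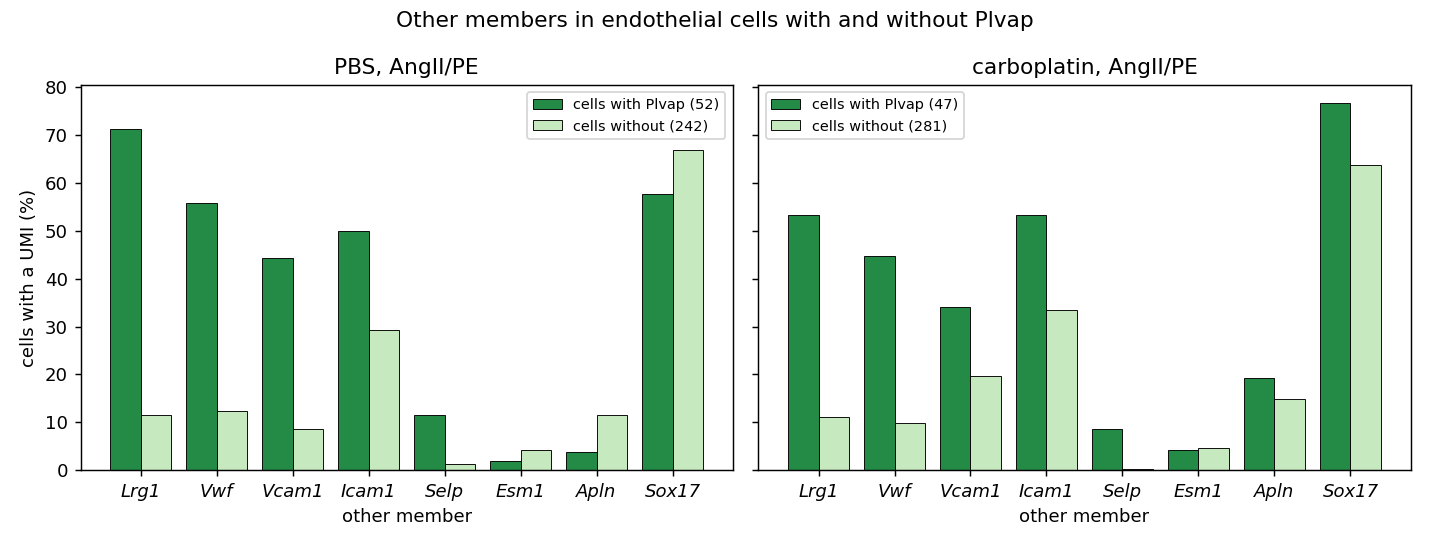
Share of endothelial cells with a UMI of each other gene (vertical axis, %) among cells with Plvap (dark) and without it (light), in the 2 AngII/PE libraries. Lrg1, Vwf, Vcam1, Icam1 and Selp are more frequent in cells with Plvap in both, and Esm1 is not.

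Cells with venous markers made up a larger share under AngII/PE after PBS, and after carboplatin the difference was within counting error at equal depth. At least 3 of 6 venous markers (such as Nr2f2 and Ephb4, none of them among the 9 genes) were held by 20 of 543 cells (3.68%) in PBS-saline, 28 (5.62%) in carboplatin-saline, 75 (25.5%) in PBS-AngII/PE and 36 (10.98%) in carboplatin-AngII/PE. At equal depth, with at least 2 markers in thinned cells, the shares were 5.31% (exact interval 3.50 to 7.68), 5.25% (3.36 to 7.78), 12.4% (8.77 to 16.8) and 7.55% (4.90 to 11.02). Nr2f2, the transcription factor of venous identity, was 2.33-fold higher after PBS and 1.26-fold after carboplatin. At least 3 of 6 capillary markers were held by 90.2% to 95.2% of cells in each library.

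The genes divided by how they related to that profile. In cells with at least 3 venous markers, Vwf measured 418, 427, 356 and 689.8 CPM in the 4 libraries, and in the remaining cells 27.6, 32.3, 26.1 and 22.4 CPM. Outside venous-marker cells the AngII/PE to saline ratio of Vwf was thus 0.944 after PBS and 0.695 after carboplatin, where it was above 1 over all cells. Endocardial-marker cells were part of this split. In PBS-AngII/PE, 416 of the 476 Vwf UMIs lay in venous-marker cells and 234 in the 7 endocardial-marker cells. In carboplatin-AngII/PE these were 433 and 343 (5 cells) of 510. Cells with both kinds of marker thus held part of the Vwf of venous-marker cells. Plvap and Lrg1 were higher on both sides of the split. Outside venous-marker cells Lrg1 had 10 and 5 UMIs in the saline libraries and 133 and 119 in the AngII/PE libraries, and Plvap had 3 and 1 against 129 and 164. Within them Lrg1 had 0 UMIs in 20 cells in PBS-saline and 1 in 28 cells in carboplatin-saline, against 223 in 75 cells and 123 in 36 cells under AngII/PE. Plvap differed less there: venous-marker cells held 30 and 11 of its UMIs under saline and 354 and 151 under AngII/PE. Its level was 117, 25.9, 303 and 241 CPM in venous-marker cells and 0.767, 0.265, 56.0 and 47.8 CPM outside them. Most saline Plvap UMIs thus lay in venous-marker cells. Sox17 was also higher outside venous-marker cells, 132 and 147 CPM under saline and 208 and 221 CPM under AngII/PE.

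**Figure D4:**
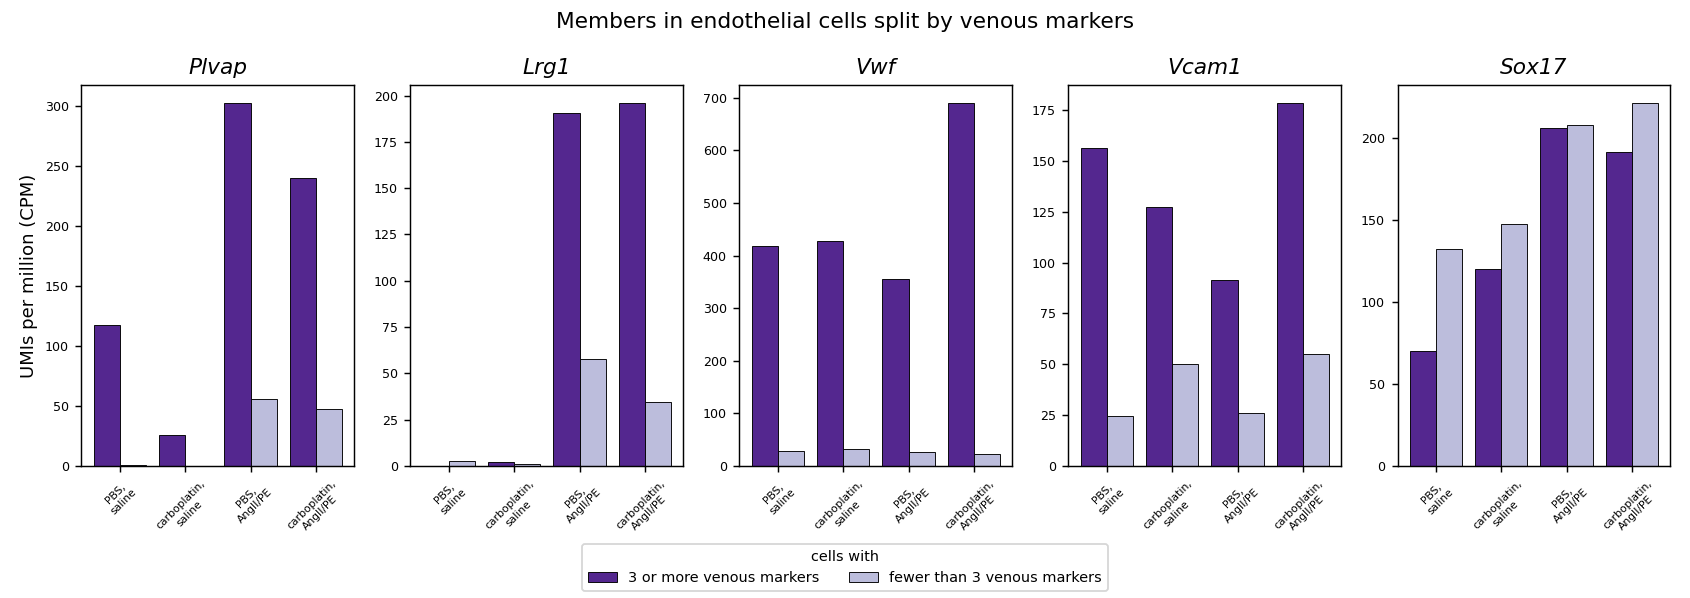
Level of 5 genes (CPM, vertical axes starting at 0 and scaled per gene) in endothelial cells with at least 3 of 6 venous markers (dark) and with fewer (light), 1 pair of bars per library and no error bars. Lrg1 and Plvap are higher under AngII/PE in both kinds of cell, whereas Vwf outside venous-marker cells stays between 22.4 and 32.3 CPM. Endocardial-marker cells are not left out.

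Sox17 was highest in cells with arterial markers, where Apln was nearly absent. In cells with at least 3 of 6 arterial markers (47, 74, 55 and 50 cells) Sox17 measured 476, 424, 440.2 and 577 CPM, and in the other cells 85.2, 79.2, 146 and 141 CPM. Within arterial-marker cells its level was thus not higher under AngII/PE after PBS, and after carboplatin it was higher in both kinds of cell. Arterial-marker cells were 8.66%, 14.9%, 18.7% and 15.2% of gated cells. At equal depth, with at least 2 markers in thinned cells, the shares were 10.0%, 13.7%, 13.8% and 12.6%. Arterial-marker cells held 219 of 535, 338 of 608, 316 of 719 and 406 of 879 Sox17 UMIs. The higher level over all cells after PBS was therefore not confined to the other cells. Apln had 0, 0, 1 and 2 UMIs in arterial-marker cells. Cells with Apln more often held at least 3 of 6 cell cycle genes: 4 of 30 cells (13.3%) against 1.52% of the others in PBS-AngII/PE, and 7 of 51 (13.7%) against 3.61% in carboplatin-AngII/PE. This was not particular to Apln. Cells with Icam1 did so in both libraries (6.19% against 1.02% and 6.72% against 4.31%). Cells with Vwf (12.2% against 3.94%), Vcam1 (9.86% against 3.89%) and Esm1 (13.3% against 4.79%) did so in carboplatin-AngII/PE, but not in PBS-AngII/PE (0%, 2.27% and 0%). Cells with Plvap did so less often than the others in both libraries. Cells with Apln were also deeper (medians 14379 against 9934 and 13743 against 10335 UMIs). Such cycling cells numbered 2, 6, 8 and 17 in the 4 libraries.

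The other cell classes of the sort gave the background for each gene. Sox17 in macrophage-gated cells stood at 0.185% to 0.210% of its endothelial level, and the 6 gate genes at 0.0678% to 0.514%. Plvap, Apln and Esm1 held 0 to 14 UMIs in 2102 to 4827 macrophage-gated cells. Vwf was above the range of Sox17, at 13.05%, 14.5%, 4.73% and 5.08% of its endothelial level, with a UMI in 6.53% to 9.99% of macrophage-gated cells (median depth 12523 to 13951 UMIs). Icam1 was higher in macrophage-gated than in endothelial cells, 127 to 193 CPM, or 167% to 226% of the endothelial level. Vcam1 measured 30.2 to 46.6 CPM in macrophage-gated cells and 105 to 167 CPM in 69 to 106 fibroblast-gated cells per library. Icam1 in macrophage-gated cells was lower under AngII/PE, with a ratio of 0.744 after PBS and 0.679 after carboplatin.

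The receptors that meet these adhesion molecules were read in macrophage-gated cells. Selplg, the ligand of P-selectin, was 1.72-fold higher under AngII/PE after PBS (1.66 to 1.78) and 1.42-fold after carboplatin (1.38 to 1.47). Itga4, a subunit of the VCAM-1 receptor, was lower, at 0.789 and 0.635, as was its partner Itgb1 at 0.724 and 0.785. Of the ICAM-1 receptors, Itgal was at 0.469 and 0.257, Itgam at 1.13 and 1.02, and the shared subunit Itgb2 at 1.39 and 1.25.

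Gene lists around the members were read in the endothelial cells, each count beside the share of all genes past the same line. Of 16 measured genes of tip cells and sprouting, 11 were at least 1.5-fold higher and 1 lower under AngII/PE after PBS (median log2 ratio 0.90, beside -0.03 for all genes, of which 10.6% were higher and 10.7% lower), among them Pgf, a VEGF-family ligand (10.7-fold), Sparc, a matrix glycoprotein (3.65-fold), Mcam (3.22-fold) and Cd34 (2.72-fold). After carboplatin 4 were higher and 1 lower (median 0.10; 12.5% and 10.6% of all genes), Sparc at 2.99-fold, Cd34 at 2.35-fold and Nid2 at 2.03-fold, with Angpt2 lower at 0.328. Carboplatin against PBS under saline gave 8 higher and none lower (median 0.56; 3.58% and 4.34% of all genes). Aplnr, the receptor for the Apln product, measured 113, 185, 259 and 266 CPM in the 4 libraries, lowest in PBS-saline as Apln was. The first and the third of these comparisons share the PBS-saline library. The list was written with earlier results of these data known. The summed level of 6 fibroblast markers in the gated cells was also higher under AngII/PE, 137 against 22.5 CPM after PBS and 194 against 79.0 CPM after carboplatin. The part of fibroblast RNA in the ratios of this list was not tested. Pgf averaged under 20 CPM over the 4 libraries, so its ratio after PBS rests on few UMIs in PBS-saline.

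The NF-kB and cytokine list, which holds other genes induced with Vcam1 and Icam1, had 2 of 15 higher and none lower after PBS (Cxcl1 at 4.40-fold and Tnfrsf1a at 1.72-fold) and 2 higher and 3 lower after carboplatin (Cxcl10 at 10.5-fold and Tnfrsf1a at 1.84-fold higher, Ccl2 at 0.475, Csf1 at 0.518 and Birc3 at 0.655 lower). Its median log2 ratio was -0.02 and -0.22, and its counts lay near the shares over all genes, 21.3% past the line in either direction after PBS and 23.1% after carboplatin. Of 11 genes of leukocyte adhesion and junctions, 4 were higher in each comparison (10.6% and 12.5% of all genes), Icam2 at 1.76-fold and 1.66-fold among them, and 1 was lower after PBS. Mcam and Cd34, which the tip cell list also holds, were among the 4 in each comparison, so the counts of these lists are not separate. Of 10 haemostasis genes, 4 were higher and 2 lower after PBS and 3 higher and 1 lower after carboplatin, beside 21.3% and 23.1% of all genes in either direction. Angpt2, another Weibel-Palade cargo, stood at 0.389 after PBS and 0.328 after carboplatin.

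The remaining lists are read against the same shares, 21.3% of all genes past 1.5-fold in either direction after PBS and 23.1% after carboplatin, and with 4 to 11 genes a list a low count is no result about it. None of 9 TGF-beta and BMP genes, Eng, Acvrl1 and Tgfbr2 among them, passed 1.5-fold under AngII/PE in either comparison, with medians of -0.05 and -0.08. Of 11 genes of caveolae and permeability, none was higher and only Kdr, a VEGF receptor and gate gene, was lower in each (0.564 and 0.490). Of 11 Notch, SoxF and arterial genes, Gja4 (2.99-fold) and Sox18 (1.52-fold) were higher and Gja5 (0.429) lower after PBS, and Gja4 (2.06-fold) alone was higher after carboplatin. All 4 measured cell cycle genes were higher in both, beside 10.6% and 12.5% of all genes. Cdk1, the kinase of mitotic entry, held 3 and 59 UMIs in the PBS pair and 19 and 143 in the carboplatin pair (7.79-fold). Cdk1 passed the level filter only through the AngII/PE libraries, and Ccnb1 and Birc5 of the same list did not pass it. Nothing is therefore read from the count of cell cycle genes. Of 5 flow-response genes none passed after PBS and 1 was higher after carboplatin.

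Genes whose levels varied from cell to cell most like each member were sought among 8904 genes detected in at least 5% of gated cells of every library, leaving out ribosomal, mitochondrial, unnamed and gate genes. The measure was the lowest of the 4 within-library Pearson correlations. For Plvap these were Vwf (0.39) and Prkg1 (0.26). For Vwf they were Eln (0.40), Nr2f2 (0.34) and Mgp (0.30), and for Sox17 Fbln5 (0.37), Pcsk5 (0.36) and Stmn2 (0.36). For Apln they were Adm (0.28), Tmsb10 (0.19) and Kit (0.19), for Icam1 Vcam1 (0.24), Junb (0.21) and Zfp36 (0.21), and for Vcam1 Myrip (0.28), Vwf (0.28) and Pdia5 (0.25). The gene most alike was Vwf (0.31) for Selp, Entpd1 (0.16) for Lrg1 and Angpt2 (0.11) for Esm1. Over the 2 AngII/PE libraries alone, the candidates most like Lrg1 were Cmah (0.46), Slco2a1 (0.44) and Vwf (0.41); Plvap, at 0.56 above, was no candidate because few saline cells held it. Cells share depth, and in counts this sparse a weak value is no finding.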

How the data were processed

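Per the file headers, the deposited files hold raw UMI counts per gene and barcode made with Cell Ranger 7.1.0, whereas the labels' protocols name version V3. Reads were aligned to mm10 per the labels' protocols. The submitters' processing notes name Seurat 4. Intron and strand settings are not given in the sources used here.

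Barcodes were kept at the submitters' limits: a mitochondrial share under 10%, fewer than 30000 UMIs, more than 500 and fewer than 7000 genes. This kept 4310, 3484, 3849 and 5669 of 6910, 7049, 5997 and 8012 barcodes. No doublet caller was run; cells reaching another class's gate (4 of 6 markers) were left out as an alternative. UMIs were summed over gated cells per library and divided by their total (CPM). Ratios carry exact conditional binomial, shares Clopper-Pearson and sums Poisson 95% intervals. With 1 library per group no test was made. Ratios were tested first on simulated library sums, drawn as Poisson counts with known folds. Such sums lack the clumping of UMIs in single cells seen here, so that test could not show how the intervals behave under it. TMM factors came from edgeR 4.0.16; Python 3.11.15 and numpy 2.4.6 did the rest. Genes averaging 10 CPM or more were compared at 1.5-fold, and 2-fold was an alternative, as were TMM scaling, thinning, stricter gates, other cell filters and cells of 1 called sex. The text names all 9 genes, for each the most alike genes, and per list up to 4 genes with the largest ratios; Aplnr, Tgfbr2, Eng, Acvrl1, Icam2, Birc3, Csf1 and Gtpbp3 were named after their values were seen where the rule did not take them. Members and lists were chosen with earlier results of these data known. Some genes that the rule or the marker lists take are not reported here.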

Additional observations from a re-analysis of the deposited data

Results flagged for a closer look

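Apln had ratios of opposite sign under the same contrast, the second close to no difference: carboplatin against PBS gave a log2 ratio of 1.23 under saline (30.4 against 12.95 CPM, 128 against 54 UMIs) and -0.068 under AngII/PE (31.0 against 32.5 CPM, 126 against 113 UMIs). The second interval (0.734 to 1.24 as a ratio) included 1, and its sign turned with the processing: its log2 ratio ran from -0.71 without venous-marker cells to 0.51 with at most 5 UMIs counted per cell. With 1 library per group, the difference between the contrasts was not tested.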

How the results depend on the processing

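No paired analysis was possible because each group is 1 library of pooled mice. For the same reason no replicate could be left out. Plvap and Lrg1 were higher under AngII/PE in both comparisons under all 14 alternatives run, Plvap by at least 3.33-fold (female-called cells, after PBS) and Lrg1 by at least 3.71-fold (female-called cells, after carboplatin, 21 UMIs against 0 set to a floor of 3). Without barcode filter Plvap after carboplatin was 7.28-fold. The alternatives of leaving out venous-marker cells, counting at most 5 UMIs per cell and leaving out shared barcodes were chosen after seeing the data.

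The count of members past 1.5-fold after PBS, 7, became 4 without venous-marker cells. After carboplatin, 4 became 7 in female-called cells (133 and 97 cells in the libraries compared). For carboplatin against PBS under AngII/PE, 4 became 1 with no barcode filter, 1 with at most 5 UMIs counted per cell, 1 at a 2-fold threshold, 2 with cells weighted alike and 7 in female-called cells. Except for the 2-fold threshold, the shares of all genes past the line are not given for these alternatives. Nothing is read from these counts.

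Of ratios past 1.5-fold, those that follow reversed, given as log2 ratios. Without venous-marker cells: Vwf -0.083 after PBS and -0.52 after carboplatin, and Selp -0.18 after carboplatin, 1.37 for carboplatin against PBS under saline and 0.42 under AngII/PE. In female-called cells: Selp -1.79 after PBS, Vwf -0.79 after carboplatin, and, for carboplatin against PBS under saline, Vcam1 -0.16 and Esm1 1.54. In male-called cells Selp was 0.60 for that comparison. Thinned to 2000 UMIs, Selp was -1.86 after carboplatin and 0.48 for carboplatin against PBS under saline. With cells weighted alike Selp was -0.095 after carboplatin. Vwf after carboplatin was -0.027 without endocardial or lymphatic cells and -0.010 with at most 5 UMIs counted. Plvap for carboplatin against PBS under saline was 0.72 with no barcode filter. Smaller differences also changed sign. In female-called cells Vwf was -0.55 and Sox17 -0.76 for carboplatin against PBS under saline, Vcam1 was -0.27 after PBS, Icam1 0.71 after carboplatin and Esm1 0.93 for carboplatin against PBS under AngII/PE. Vcam1 after carboplatin was -0.28 with no barcode filter, Icam1 0.46 thinned to 2000 UMIs, Esm1 0.41 in male-called cells, and Apln -0.34 in male-called cells. The remaining changes of sign were in Icam1, Apln and Sox17 for carboplatin against PBS, Vwf for that contrast under saline, and Apln, Esm1 and Vcam1 under other alternatives. The causes were not tested. TMM factors reversed no ratio. Depth limits Selp, Esm1 and the saline values of Lrg1 and Plvap, which rest on 6 to 55 UMIs.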

Other observations

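Gated barcodes that failed the submitters' filter also held the members. For carboplatin-saline, 1 of 87 such barcodes held 49 of the 50 Plvap UMIs, and for PBS-saline 47 such barcodes held 0. Under AngII/PE, Lrg1 was in 17 of 84 such barcodes (20.2%) after PBS and in 24 of 114 (21.1%) after carboplatin, against 1 of 47 and 3 of 87 under saline.

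Vwf in macrophage-gated cells measured 6.73, 10.4, 6.48 and 6.39 CPM in the 4 libraries and so did not follow its endothelial level, which was 51.6, 72.1, 137 and 126 CPM. Selp in macrophage-gated cells was low but higher under AngII/PE, 9 and 2 UMIs against 52 and 33, in under 1% of those cells. Lrg1 there had 9 and 5 UMIs under saline and 42 and 51 under AngII/PE.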
